A study of Mus musculus with 12 samples.

Results

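The potassium channel genes described here are the 92 mouse genes whose symbol begins with Kcn, followed by letters for the subfamily and a number, out of 27179 genes counted. The members were taken by symbol alone, but the family was chosen with earlier results of these data known. The symbol covers pore-forming subunits and also proteins that only attach to a channel, and 6 further Kcn symbols (Kcnmb4os1, Kcnmb4os2, Kcnrg, Kcnd3os, Kcnq1ot1 and Kcne1l) fall outside it. Of the 92 genes, 65 reached a mean of at least 1 CPM in 1 of the 4 groups and were tested, 24 lay below that level and 3 (Kcna10, Kcnk15 and Kcnk16) had 0 counts in all 12 libraries. CPM is the number of counted fragments of a gene, scaled by the library total after that total was adjusted with a TMM factor. The scaled libraries thus need not sum to the same value. The libraries were made from RNA of embryonic dorsal cortex of C57BL/6 mice. There were 4 groups of 3 libraries: WT at embryonic day E14.5, Ash2l cKO at E14.5, WT at E16.5 and Ash2l cKO at E16.5. In the cKO, a Cre recombinase driven by D6, a regulatory element active in the dorsal telencephalon, removes Ash2l, a core subunit of the complexes that methylate histone H3 at lysine 4. Cells that D6-Cre does not reach keep the gene, and the labels do not give the Cre status of the WT embryos or say whether a library is 1 embryo. The study asked what Ash2l does while the cortex forms.

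Potassium channels let potassium leave or enter a cell along its gradient. In neurons they set the resting potential, end the action potential and limit how often a cell fires, and in glia they help to clear potassium from outside the cells. Voltage-gated (Kv) channels open on depolarisation and are built from several pore-forming subunits, often of mixed kinds. Calcium- and sodium-activated channels follow the ion inside the cell, inward rectifiers pass current best near the resting potential, and the channels with a pair of pore domains carry a leak. Auxiliary subunits such as the KChIP, Kv beta, BK beta and KCNE proteins change how a channel opens or where it sits.

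Library totals ran from 14318147 to 24719047 counts. Libraries are called A, B and C by the ascending first number of their title, which 1 WT and 1 cKO library share at each age. The labels do not say what these numbers stand for, so the p-values rest on how far these libraries differ from each other, and some of that may be technical. Ash2l was at 126, 144 and 118 CPM in the E14.5 WT libraries, 48.1, 59.5 and 51.99 in the E14.5 cKO, 136, 130.1 and 136 in the E16.5 WT and 52.9, 59.6 and 58.6 in the E16.5 cKO, so no library went against its label. By Xist and Y-linked genes, all 3 E14.5 WT libraries read as male and all 3 E14.5 cKO libraries as female, so sex and genotype cannot be told apart at E14.5. At E16.5, WT A and cKO C read as female and the other 4 libraries as male. Where embryo sex was added to a fit of 12 libraries, its term came only from E16.5, because sex does not vary within an E14.5 group. Such a fit cannot separate sex from genotype at E14.5. The E14.5 cKO A library stood apart: its 8 meningeal fibroblast markers summed to 354.9 CPM against 13.4 to 48.5 CPM in the other 5 E14.5 libraries, and its 15 pan-neuronal markers summed to 2743 CPM against 4226 to 6751 CPM. A change is the log2 of the cKO level over the WT level, with a standard error (SE) beside it, and a gene is called where its edgeR p-value, adjusted over the 14427 genes tested, is below 0.05. Where another tool made a call, it is named.

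Levels of different genes were compared per kilobase of exon. On that scale the highest member over the 6 WT libraries was Kcnn2, a small-conductance calcium-activated channel, at a mean of 26.8 CPM per kb. Among the highest were also Kcnq3 at 26.4, Kcnk10 at 22.8 and Kcnh7 at 17.9. Kcnq3 is a subunit of the channel of the M-current, a slow brake on firing, Kcnk10 is a leak channel, and Kcnh7 is a channel of the ERG group. Then came Kcnip1 at 11.98, Kcnj11 at 11.9, Kcnip3 at 11.5, Kcnj3 at 11.1 and Kcna3 at 10.1 CPM per kb. Over the 6 WT libraries the ranges of neighbours among these genes overlapped, except between Kcnh7 (16.4 to 20.2) and Kcnip1 (10.7 to 13.6). The order of other neighbours is thus not settled. Genes further apart in the order can still be separate, as Kcnn2 (24.7 to 30.4) and Kcnh7 are.

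**Figure D1:**
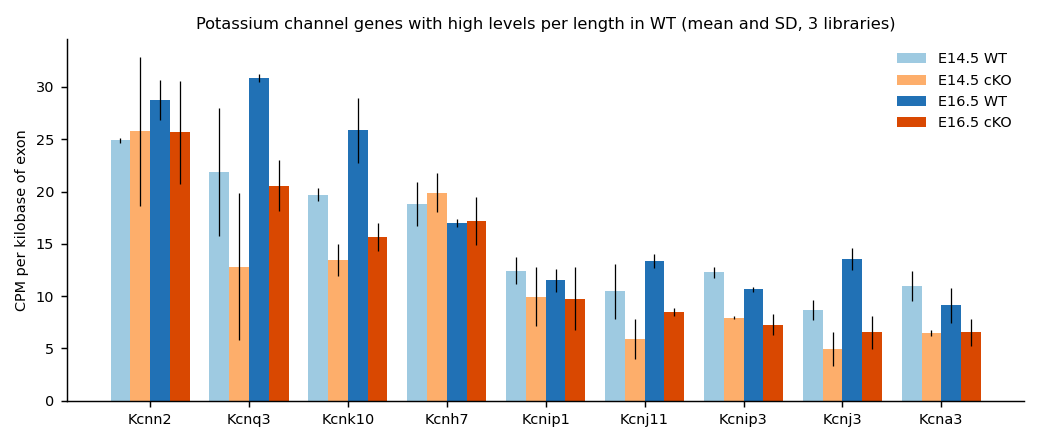
Mean level in CPM per kilobase of exon (bars, whiskers SD over 3 libraries) of potassium channel genes with high levels per length over the WT libraries, in the 4 groups. Kcnq3, Kcnk10, Kcnj11, Kcnip3, Kcnj3 and Kcna3 have lower cKO than WT means at both ages, while the bars of Kcnn2 and Kcnh7 are close to each other.

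The members just above the level for testing were Kcnj14, with a highest group mean of 1.06 CPM, Kcnk9 with 1.16 and Kcnj13 with 1.20, and those just below it were Kcnk6 with 0.742, Kcna5 with 0.726 and Kcnk13 with 0.679. Summed over the 65 tested members, the level ran from 1067 to 1311 CPM in the E14.5 WT libraries and from 587.6 to 922 CPM in the E14.5 cKO libraries. At E16.5 it ran from 1346 to 1520 CPM in WT and from 941 to 1017 CPM in cKO. The WT and cKO ranges do not overlap at either age.

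At E16.5, 22 of the 65 tested members were lower in the cKO (33.85%) and 1, Kcnj9, was higher (1.54%). Over all genes tested, 10.1% were called lower and 6.1% higher in that comparison. DESeq2 called 26 members lower and 1 higher, against 12.3% and 7.32% of all genes. The log2 fold change was negative for 58 members (89.2%), against 47.2% of all genes, with a median of -0.52 against 0.02 over all genes. Kcnc4, Kcng3, Kcns2, Kcns3, Kcnj13, Kcnk9, Kcnk12 and Kcne2 reached the level for testing only in WT groups. That level thus favoured a negative change in them, and they were negative at both ages. In 29 members (44.6%) the cKO values were all under the WT values, against 21.5% of all genes. Kcnj9 and Kcnab2 had all 3 cKO values above the WT values. The share of all genes in that direction was not computed, so this says nothing about the members as a set. The 22 decreases ran from -2.50 for Kcng3 to -0.24 for Kcnn3 on the log2 scale, and 10 were past 2-fold. In bulk tissue, fewer cells that express a gene and less of its RNA per cell cannot be told apart. Each of the 6 libraries was left out in turn, and 13 of the 23 calls held in all 6 fits, those of Kcna2, Kcnk2, Kcng1, Kcnj11, Kcnd3, Kcnn1, Kcnd2, Kcnk10, Kcnh8 and Kcnq3 among them. The number called lower was 13 without cKO B, 15 without WT B, 16 without WT A, 18 without WT C, 19 without cKO C and 26 without cKO A, while the share of all genes called lower ran from 4.92% to 12.4% over these fits.

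At E14.5, 9 members were called lower (13.85%) and 0 higher, against 1.77% lower and 0.34% higher over all genes tested. DESeq2 called 22 lower (33.8%) and 0 higher, against 6.72% lower and 1.98% higher over all genes. At an unadjusted edgeR p under 0.05 there were 32 members, against 20.3% of all genes. The 13 that DESeq2 added included Kcnk2, Kcnh1, Kcnab3, Kcnf1, Kcnh5, Kcnk10, Kcnh8, Kcnt1, Kcnj3, Kcnk3 and Kcnk1. The log2 fold change was negative for 59 of the 65 members, with a median of -0.76 against 0.01 over all genes. The 59 include the members named above that reached the level for testing only in WT groups. The cKO values were all under the WT values in 34 members (52.3%), against 14.9% of all genes. The 9 included Kcng1, Kcnn1, Kcnip3, Kcna3, Kcnj10, Kcnd3, Kcnh3 and Kcna2. These calls depended on single libraries: 8 remained without cKO A, 3 without WT A, 2 without WT B or without cKO B, and 0 without WT C or without cKO C. The share of all genes called lower was 2.01% without cKO A, and ran from 0.0277% to 0.402% in the other 5 fits. Without cKO A, the library with many meningeal transcripts, the median of the 65 members was -0.54. That library was the lowest of the 3 E14.5 cKO libraries in 48 of the 65 members, and WT B, with the highest pan-neuronal sum at that age, was the highest of the 3 WT libraries in 45. In the other direction, WT A was the lowest WT library in 40 members and cKO B the highest cKO library in 45. The same ranks over all genes were not computed. The part of these libraries in the result beyond these values was not tested.

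Of the members, 7 were called lower at both ages, Kcna2, Kcnd3, Kcng1, Kcnh3, Kcnn1 and Kcnip3 among them, which is 77.8% of the 9 calls at E14.5 and 31.8% of the 22 at E16.5. Over all genes tested, 226 were called lower at both ages, 88.6% of the 255 at E14.5 and 15.4% of the 1464 at E16.5. Kcna3 and Kcnj10 were called at E14.5 alone. All 22 members called lower at E16.5 had a negative log2 fold change at E14.5 too, measured in other libraries. So had 59 of the 65 tested members, called or not (90.8%), against 47.9% of all genes. The 22 thus stand near the share of the members as a whole. The difference between the ages in the cKO effect was tested itself, in 1 fit of the 12 libraries. It passed in 0 members and in 0% of all genes by edgeR, and in 0 members by DESeq2. At an unadjusted p under 0.05 there were 5 members, among 291 of all genes (2.02%).

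**Figure D2:**
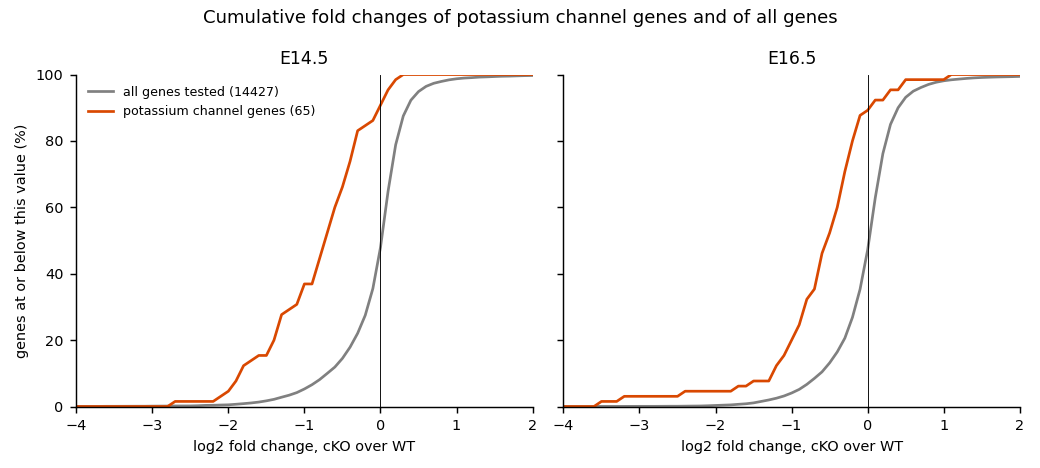
Share of genes (in percent, vertical axis) with a log2 fold change of cKO over WT at or below the value on the horizontal axis, for the 65 tested potassium channel genes and all 14427 genes tested. The curve of the channel genes lies to the left of the curve of all genes at both ages, with medians of -0.76 at E14.5 and -0.52 at E16.5.

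The bases before the start of 5 members are shown because of how the members moved: Kcna2, Kcnn1 and Kcnip3 were called lower at both ages, and Kcnj9 and Kcnj10 are neighbours of which Kcnj9 was called higher at E16.5 alone and Kcnj10 lower at E14.5 alone. RefSeq promoter windows on GRCm38.p6, the assembly also called mm10, were found for 45 of the 65 tested members and for 13 of the 22 called lower at E16.5. With fewer than 80% matched, a comparison of sequence content over the whole set is void. The shares of members given below describe only the 45 windows found, and no conclusion is drawn from them. Each line gives the 250 bases before the annotated start, 5′ to 3′ on the strand of the gene, with CG in capitals. They lie at chr3:107101317-107101566 (plus strand), chr8:70857009-70857258 (minus strand), chr2:127521393-127521642 (minus strand), chr1:172329323-172329572 (minus strand) and chr1:172340960-172341209 (plus strand), in that order.
Kcna2: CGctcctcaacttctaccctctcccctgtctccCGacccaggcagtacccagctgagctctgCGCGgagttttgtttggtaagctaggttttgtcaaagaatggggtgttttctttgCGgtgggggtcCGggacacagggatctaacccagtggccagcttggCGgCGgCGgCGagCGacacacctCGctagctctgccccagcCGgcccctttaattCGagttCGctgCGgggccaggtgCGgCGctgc
Kcnn1: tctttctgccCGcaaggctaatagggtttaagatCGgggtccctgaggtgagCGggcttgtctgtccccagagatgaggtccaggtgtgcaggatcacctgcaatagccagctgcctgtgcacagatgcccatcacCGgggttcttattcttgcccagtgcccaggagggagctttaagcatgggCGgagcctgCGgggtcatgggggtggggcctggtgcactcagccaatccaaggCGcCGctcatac
Kcnip3: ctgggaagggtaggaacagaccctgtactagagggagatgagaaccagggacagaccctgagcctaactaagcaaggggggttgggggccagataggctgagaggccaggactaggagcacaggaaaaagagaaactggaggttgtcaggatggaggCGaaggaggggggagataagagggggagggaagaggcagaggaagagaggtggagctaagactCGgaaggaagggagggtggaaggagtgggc
Kcnj9: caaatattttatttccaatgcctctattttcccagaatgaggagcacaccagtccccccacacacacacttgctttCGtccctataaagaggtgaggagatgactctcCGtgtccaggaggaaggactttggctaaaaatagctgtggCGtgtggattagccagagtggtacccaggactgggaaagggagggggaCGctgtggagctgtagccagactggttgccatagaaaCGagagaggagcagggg
Kcnj10: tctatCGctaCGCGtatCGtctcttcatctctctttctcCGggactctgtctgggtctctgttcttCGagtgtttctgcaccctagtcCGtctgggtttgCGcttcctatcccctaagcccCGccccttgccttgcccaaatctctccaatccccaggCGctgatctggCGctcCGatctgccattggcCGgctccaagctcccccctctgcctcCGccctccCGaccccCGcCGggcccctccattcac
The stretch before Kcna2 holds 18 CG pairs and that before Kcnj10 holds 17, while those before Kcnn1, Kcnj9 and Kcnip3 hold 8, 5 and 2. So members that were called lower at both ages stand near both ends of this range. The full windows, which run 50 bases past the start, were searched on both strands. The motif GGGCGG was in the windows of Kcna2, Kcnn1, Kcnip3 and Kcnj10, and is in 46.4% of the 18458 windows of all genes, in 65.7% of the 10950 windows of tested genes and in 62.2% of the 45 windows of tested members. The window of Kcnj9 held TATAAA instead, a motif present in 13.1% of all windows, in 6.97% of those of tested genes and in 4.44% of those of tested members.

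The counts of each class below are to be read beside the shares of all genes called. These were 10.1% lower and 6.1% higher at E16.5, and 1.77% lower and 0.34% higher at E14.5. Among Kv1 genes, whose channels open at low voltages and stand largely on axons, 2 of 5 tested members were lower at E16.5 and 2 at E14.5. Kcna2 was at 23.7, 22.6 and 19.6 CPM in WT A, B and C and 7.60, 7.69 and 7.44 CPM in cKO A, B and C at E16.5. The cKO libraries lay close together well under the WT level, a change of -1.50 (SE 0.11, edgeR adjusted p = 0.00132). At E14.5 the gene was at 8.54, 21.4 and 12.9 CPM in WT A, B and C and 2.70, 4.22 and 2.70 CPM in cKO A, B and C, again without overlap although the WT libraries spread widely, a change of -2.17 (SE 0.37, edgeR adjusted p = 0.0388). This E14.5 call was lost without each of WT B, WT C, cKO A, cKO B and cKO C. Kcna3, best known from lymphocytes but also made by neurons, was at 20.4, 24.9 and 19.6 CPM in WT A, B and C and 13.1, 12.2 and 13.04 CPM in cKO A, B and C at E14.5, a change of -0.77 (SE 0.13, edgeR adjusted p = 0.0356). At E16.5 its groups touched, cKO A reaching 15.7 CPM against 15.7 CPM in WT B, and the log2 fold change of -0.45 did not pass (adjusted p = 0.14). Its E14.5 call survived the removal of cKO A but of no other single library, and not with embryo sex in the fit. Kcna4, a fast-inactivating channel, changed by -0.83 (SE 0.23, edgeR adjusted p = 0.0459) at E16.5, and this call was lost without each of WT A, WT B, cKO A and cKO B. Kcna1, a close relative of Kcna2 and its usual partner, was at 35.9, 45.2 and 46.1 CPM in WT A, B and C and 29.7, 45.3 and 49.1 CPM in cKO A, B and C at E16.5. Its groups overlapped, with a log2 fold change of -0.01 and a 95% interval of -0.37 to 0.35. At E14.5 it had -0.51 (SE 0.33) and did not pass (adjusted p = 0.43). Kcna6 had -0.53 at E16.5 and -0.76 at E14.5, neither past the threshold, and DESeq2 called it lower at E16.5.

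Kcnb2, a pore-forming Kv2 subunit, had -0.30 at E16.5 (adjusted p = 0.175) and -0.46 at E14.5 (adjusted p = 0.519), with overlapping groups at E16.5. Modifier subunits form no channel alone and join Kv2 subunits. Of 6 tested, Kcng1 and Kcng3 were lower at E16.5. Kcng1 was at 18.1, 21.4 and 18.4 CPM in WT A, B and C and 7.51, 7.05 and 8.01 CPM in cKO A, B and C at E14.5 and at 13.4, 12.9 and 13.2 CPM in WT A, B and C and 6.15, 5.40 and 7.05 CPM in cKO A, B and C at E16.5. Its groups lay far apart for their spread, with changes of -1.36 (SE 0.13, edgeR adjusted p = 0.0115) and -1.06 (SE 0.13, edgeR adjusted p = 0.0032). Without WT C or without cKO C the E14.5 call was lost. Kcng3 had the largest called decrease of the members at E16.5, at 4.59, 4.51 and 2.42 CPM in WT A, B and C and 1.09, 0.459 and 0.392 CPM in cKO A, B and C, which gives -2.50 (SE 0.44, edgeR adjusted p = 0.00963). WT C was lower than the other WT libraries, and the call was lost without cKO B. Amigo1, an adhesion protein that travels with Kv2 channels, was also lower at both ages, by -0.71 (adjusted p = 0.0453) and -0.69 (adjusted p = 0.00536) in edgeR. Kcns2, Kcns3, Kcnf1 and Kcnv1 did not pass at either age. Kcnf1 had -1.74 (SE 0.48) at E14.5 and -0.10 (SE 0.31) at E16.5, and Kcnv1 -0.16 and -0.32.

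**Figure D3:**
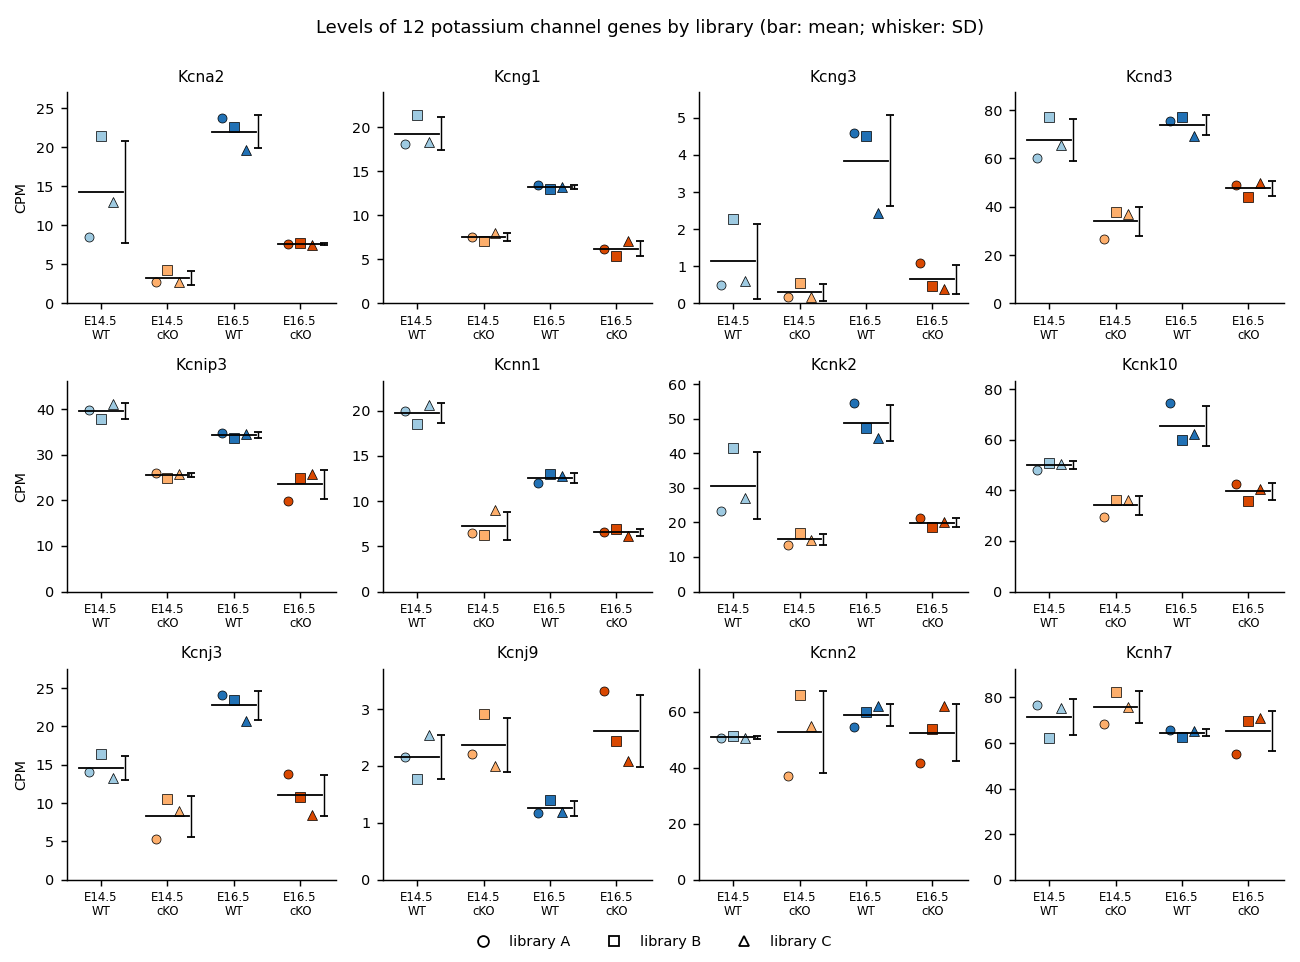
Level in CPM (vertical axis) of 12 potassium channel genes in each library of the 4 groups, with bars for the mean, whiskers for the SD of 3 libraries and a marker shape for the letter of the library. In Kcna2, Kcng1, Kcnd3, Kcnip3, Kcnn1, Kcnk2, Kcnk10 and Kcnj3 the cKO points lie under the WT points of the same age, Kcnj9 lies higher in the cKO at E16.5, and Kcnn2 and Kcnh7 overlap.

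Kv3 channels open only at high voltages and let cells fire fast. Kcnc1 was at 84.6, 70.5 and 60.6 CPM in WT A, B and C and 68.01, 48.3 and 43.1 CPM in cKO A, B and C at E16.5. Its groups overlapped, with a log2 fold change of -0.40 (adjusted p = 0.189). Kcnc2 was called lower by DESeq2 at E16.5 and not by edgeR, which gave -0.65 (adjusted p = 0.0798).

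Kv4 channels carry the transient current of dendrites, together with KChIP and dipeptidyl-peptidase-like subunits, and 2 of 3 tested Kv4 genes were lower at E16.5. Kcnd2 was at 20.7, 17.99 and 15.7 CPM in WT A, B and C and 8.53, 7.80 and 10.3 CPM in cKO A, B and C at E16.5, where the cKO mean was 49.1% of the WT mean (SE of the log2 change 0.15, edgeR adjusted p = 0.00568). Its 3 cKO libraries lay well below WT. At E14.5 the same gene had -0.45 and did not pass (adjusted p = 0.217). Kcnd3, one of the most abundant members, was at 60.2, 77.4 and 65.8 CPM in WT A, B and C and 26.8, 37.96 and 36.96 CPM in cKO A, B and C at E14.5 and at 75.4, 77.02 and 69.2 CPM in WT A, B and C and 49.1, 43.9 and 49.8 CPM in cKO A, B and C at E16.5. Groups were apart at both ages, with changes of -1.01 (SE 0.17, edgeR adjusted p = 0.0375) and -0.60 (SE 0.08, edgeR adjusted p = 0.00363). The E14.5 call held without cKO A and was lost without each of the other 5 libraries. Kcnip3, a calcium-binding KChIP protein that also acts as a transcriptional repressor, was at 39.8, 37.9 and 41.3 CPM in WT A, B and C and 25.9, 25.03 and 25.8 CPM in cKO A, B and C at E14.5. These are tight groups, which differ by -0.64 (SE 0.09, edgeR adjusted p = 0.024). The E16.5 value was -0.52 (SE 0.11, edgeR adjusted p = 0.0165), a call lost without each of WT A, WT B, WT C and cKO B, while the E14.5 call survived the removal of cKO A but of no other single library. Kcnip1, Kcnip2 and Kcnip4 did not pass at either age. Of the dipeptidyl-peptidase-like partners, Dpp6 was lower at E16.5 by -0.91 (edgeR adjusted p = 0.0239) and Dpp10 had -0.08 (adjusted p = 0.624). Kcnd1, the X-linked Kv4 gene, had -0.40 at E16.5 and -0.36 at E14.5 and did not pass.

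Kv7 channels open slowly near the threshold for firing. Kcnq3 was at 87.5, 89.4 and 89.3 CPM in WT A, B and C and 66.6, 52.8 and 58.04 CPM in cKO A, B and C at E16.5, a change of -0.55 (SE 0.10, edgeR adjusted p = 0.00901). WT libraries agreed closely for Kcnq3 and all cKO libraries were lower. At E14.5, Kcnq3 was at 52.3, 83.3 and 53.4 CPM in WT A, B and C and 15.2, 55.1 and 40.4 CPM in cKO A, B and C, so that cKO B exceeded WT A and WT C and the groups overlapped. The change at E14.5 was -0.78 and did not pass (adjusted p = 0.364). Kcnq5 had -0.68 (SE 0.41) at E16.5, with overlapping groups. The call of Kcnq3 at E16.5 was lost when all 12 libraries were fitted together, with or without embryo sex. Ank3, the ankyrin that holds Kv7 channels at the axon initial segment, was lower at E16.5 by -0.96 (adjusted p = 0.00219) in edgeR.

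The EAG, ERG and ELK channels are voltage-gated channels with a cyclic-nucleotide-binding-like domain, and 2 of 7 tested were lower at E16.5, both ELK genes. Kcnh8 was at 10.2, 9.32 and 7.93 CPM in WT A, B and C and 4.71, 4.18 and 4.77 CPM in cKO A, B and C at E16.5, where all cKO libraries lay below WT with a change of -0.97 (SE 0.15, edgeR adjusted p = 0.00673). This call was lost with embryo sex in the fit of 12 libraries. Kcnh3 was at 10.4, 13.1 and 9.70 CPM in WT A, B and C and 3.48, 5.32 and 4.94 CPM in cKO A, B and C at E14.5, a change of -1.28 (SE 0.22, edgeR adjusted p = 0.0388), and changed by -0.87 (SE 0.18, edgeR adjusted p = 0.0167) at E16.5. Its groups were apart at both ages. The E14.5 call survived the removal of cKO A but of no other single library and was lost with embryo sex, and the E16.5 call was lost without each of WT B, WT C and cKO B. Kcnh7, one of the 10 most abundant members per length, was at 76.9, 62.4 and 75.3 CPM in WT A, B and C and 68.5, 82.5 and 75.8 CPM in cKO A, B and C at E14.5 and at 65.7, 62.8 and 65.1 CPM in WT A, B and C and 55.3, 69.7 and 70.8 CPM in cKO A, B and C at E16.5. WT and cKO libraries were interleaved, with log2 fold changes of 0.07 (95% interval -0.17 to 0.31) and 0.04 (95% interval -0.15 to 0.23). Kcnh1, Kcnh2, Kcnh4 and Kcnh5 had values from -0.72 to -0.25 at E16.5, and none passed in edgeR, while DESeq2 called Kcnh2.

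**Figure D4:**
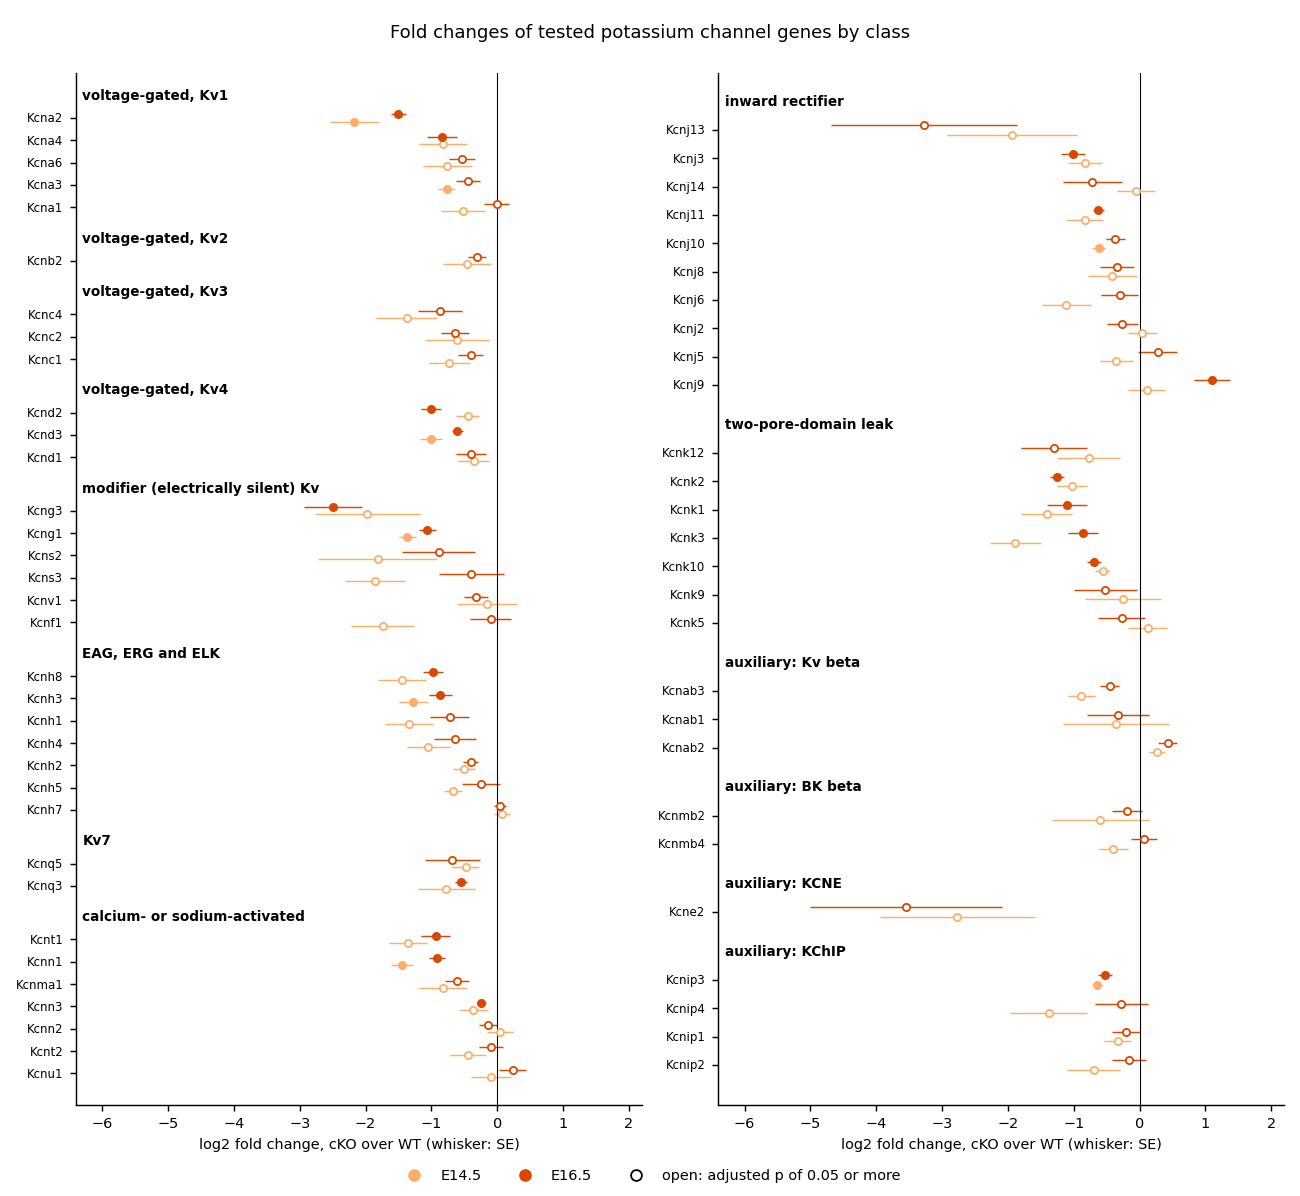
Log2 fold change of cKO over WT (horizontal axis, whiskers SE) at E14.5 and E16.5 of tested potassium channel genes, grouped by class, with filled points where the edgeR adjusted p is below 0.05. Most points lie to the left of 0 in every class of pore-forming subunits, and Kcnj9 is the only filled point to the right of it.

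The log2 fold changes of the tested calcium- and sodium-activated channels ran from -0.93 for Kcnt1 to -0.10 for Kcnt2 at E16.5. Kcnu1, which is only grouped with them here as 1 of the 7 tested genes of the class, had 0.23. The small-conductance channels, which produce the pause after an action potential, included Kcnn1, at 19.99, 18.5 and 20.6 CPM in WT A, B and C and 6.46, 6.22 and 9.01 CPM in cKO A, B and C at E14.5 and at 11.96, 13.01 and 12.8 CPM in WT A, B and C and 6.57, 6.88 and 6.14 CPM in cKO A, B and C at E16.5. The groups did not overlap, and the changes were -1.45 (SE 0.17, edgeR adjusted p = 0.0163) and -0.92 (SE 0.12, edgeR adjusted p = 0.0037). At E14.5 this call held without cKO A and was lost without each of the other 5 libraries. Its relative Kcnn2 was at 54.6, 59.9 and 62.2 CPM in WT A, B and C and 41.8, 53.8 and 61.96 CPM in cKO A, B and C at E16.5, with log2 fold changes of -0.14 (95% interval -0.40 to 0.12) and, at E14.5, 0.04 (95% interval -0.36 to 0.44). The libraries of both genotypes overlapped. Kcnn3 was at 73.04, 71.2 and 71.8 CPM in WT A, B and C and 57.6, 63.2 and 57.98 CPM in cKO A, B and C, the smallest called decrease at -0.24 (SE 0.07, edgeR adjusted p = 0.0483), and the call was lost without each of the 6 libraries. Kcnt1, a sodium-activated channel, changed by -0.93 (SE 0.22, edgeR adjusted p = 0.0265) at E16.5. That call was lost without each of WT A, WT B, cKO B and cKO C. The BK channel gene Kcnma1 had -0.61 (adjusted p = 0.059) and was called by DESeq2 and not by edgeR. Its beta subunit Kcnmb4 had 0.06 (SE 0.20). Kcnt2 and Kcnu1, the latter known from sperm, had -0.10 and 0.23 at E16.5.

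Inward rectifiers were the class with both a called increase and called decreases: 1 of 10 tested was higher and 2 lower at E16.5, and 1 lower at E14.5. Over all genes tested 6.1% were called higher and 10.1% lower at E16.5, so 1 higher of 10 is near its share. The G-protein-gated channels, opened by inhibitory neurotransmitter receptors, are built from Kcnj3, Kcnj5, Kcnj6 and Kcnj9. Kcnj3 was at 24.1, 23.5 and 20.6 CPM in WT A, B and C and 13.8, 10.8 and 8.49 CPM in cKO A, B and C at E16.5, and all cKO libraries lay below WT, with a change of -1.01 (SE 0.18, edgeR adjusted p = 0.00977) that was lost without cKO B. Kcnj9 was at 1.18, 1.41 and 1.19 CPM in WT A, B and C and 3.31, 2.45 and 2.09 CPM in cKO A, B and C, and here all cKO libraries lay above WT, with a change of 1.10 (SE 0.27, edgeR adjusted p = 0.0324). The call was lost without each of WT A, WT B, WT C, cKO A and cKO B. At E14.5, Kcnj9 was at 2.16, 1.78 and 2.54 CPM in WT A, B and C and 2.21, 2.90 and 1.99 CPM in cKO A, B and C, with overlapping groups and 0.11 (adjusted p = 0.857). Kcnj5 had 0.28 and Kcnj6 had -0.30 at E16.5, neither past the threshold. Kcnj10, the main potassium-buffering channel of glia, was at 47.6, 53.4 and 49.6 CPM in WT A, B and C and 30.1, 33.5 and 35.00 CPM in cKO A, B and C at E14.5, a change of -0.62 (SE 0.10, edgeR adjusted p = 0.0366) without overlap. That call survived the removal of cKO A but of no other single library and was lost with embryo sex. At E16.5 its cKO B library overlapped WT A, and the change was -0.37 (adjusted p = 0.129). Kcnj9 and Kcnj10 are neighbours on chromosome 1, on opposite strands with their starts 11947 bases apart and no other gene of the tables wholly between them.

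The ATP-sensitive potassium channel, which couples metabolism to excitability, joins Kcnj11 or Kcnj8 with a sulfonylurea receptor. Kcnj11 was at 45.9, 42.4 and 41.8 CPM in WT A, B and C and 28.2, 26.2 and 28.2 CPM in cKO A, B and C at E16.5. Its groups were tight and apart, with a change of -0.62 (SE 0.08, edgeR adjusted p = 0.00333), and the call was lost when the 12 libraries were fitted together. Its receptor partner Abcc8, the next gene on chromosome 7 with 3758 bases between them, was at 81.2, 77.2 and 73.9 CPM in WT A, B and C and 49.3, 51.4 and 52.04 CPM in cKO A, B and C, a change of -0.57 (edgeR adjusted p = 0.00261). Kcnj8 and its neighbour Abcc9, known from pericytes and vascular muscle, had -0.35 and -0.10 at E16.5, and neither passed. The strongly rectifying Kcnj2 had -0.26 and Kcnj14 -0.72.

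Leak channels with a pair of pore domains set the resting potential, and 4 of 7 tested were lower at E16.5 and 0 at E14.5. At E14.5, 4 had an unadjusted edgeR p under 0.05 and DESeq2 called 4 lower (Kcnk1, Kcnk2, Kcnk3 and Kcnk10). Kcnk2, a channel opened by stretch and lipids, was at 54.5, 47.5 and 44.5 CPM in WT A, B and C and 21.1, 18.6 and 20.1 CPM in cKO A, B and C at E16.5. All cKO libraries lay well below WT, with a change of -1.26 (SE 0.10, edgeR adjusted p = 0.00132). The E14.5 levels were 23.2, 41.6 and 27.01 CPM in WT A, B and C and 13.4, 16.8 and 15.03 CPM in cKO A, B and C, also without overlap, but -1.03 did not pass (adjusted p = 0.0688). Its relative Kcnk10 was at 74.4, 59.8 and 62.2 CPM in WT A, B and C and 42.5, 35.9 and 40.4 CPM in cKO A, B and C at E16.5, a change of -0.69 (SE 0.11, edgeR adjusted p = 0.00633). Kcnk1 and the acid-sensitive Kcnk3 changed by -1.10 (SE 0.31, edgeR adjusted p = 0.0481) and -0.86 (SE 0.23, edgeR adjusted p = 0.0429). Their levels were low, from 1.89 to 8.70 CPM and from 1.44 to 3.74 CPM over the 6 libraries. The call of Kcnk1 survived the removal of cKO C but of no other single library and that of Kcnk3 was lost without each of the 6. Kcnk5, Kcnk9 and Kcnk12 did not pass at either age.

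Split by role, 21 of 55 tested pore-forming or modifier genes were lower and 1 higher at E16.5, with a median log2 fold change of -0.61. Of the 10 tested auxiliary genes 1, Kcnip3, was lower, with a median of -0.24. Over all genes tested 10.1% were called lower at E16.5, so 1 of 10 is near that share. At E14.5 the medians were -0.77 and -0.62, with 8 and 1 called lower, against 1.77% of all genes. The difference between the 2 kinds was not tested. Among the auxiliary genes, Kcnab2, a Kv beta subunit, was at 19.3, 17.99 and 16.6 CPM in WT A, B and C and 28.1, 22.7 and 20.1 CPM in cKO A, B and C at E16.5, above WT in all 3 cKO libraries, with 0.43 (adjusted p = 0.0819). Kcnab1 and Kcnab3 had -0.33 and -0.45, and Kcnmb2, a BK beta subunit, -0.19.

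Kcne2 and Kcnj13, both known from the choroid plexus, had the most negative log2 fold changes of the members at E16.5, -3.55 (SE 1.46) and -3.27 (SE 1.41), and were not called (adjusted p = 0.138 and 0.156). Kcne2 was at 10.4, 0.635 and 0.554 CPM in WT A, B and C and 0.386, 0.760 and 0.581 CPM in cKO A, B and C at E14.5 and at 0.214, 0.762 and 12.2 CPM in WT A, B and C and 0.828, 0.102 and 0.131 CPM in cKO A, B and C at E16.5. E14.5 WT A and E16.5 WT C were thus high and the other 10 libraries low. The same 2 libraries held 484 and 627 CPM of 8 choroid plexus markers, against 9.61 to 62.0 CPM in the other 10. Kcnj13 reached 3.01 and 2.78 CPM in them and at most 0.586 CPM elsewhere. Without E16.5 WT C the changes at E16.5 were -0.38 and -1.30, and without E14.5 WT A those at E14.5 were -0.06 and 0.09. For comparison, Kcna2 without those libraries had -1.59 at E16.5 and -2.44 at E14.5.

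**Figure D5:**
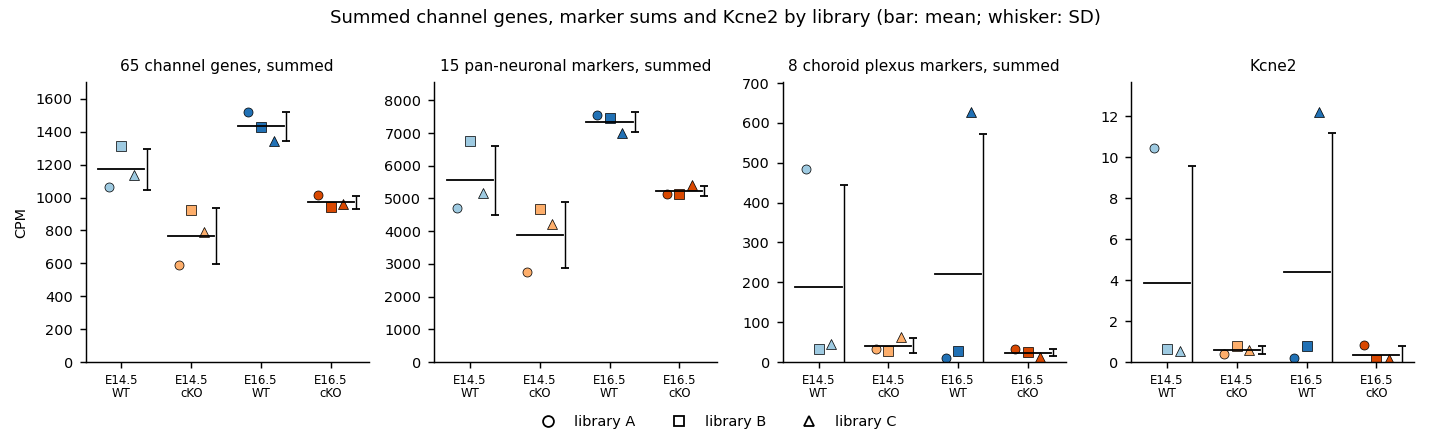
Level in CPM (vertical axes) in each library of the 4 groups, with bars for the mean and whiskers for the SD of 3 libraries: the 65 tested potassium channel genes summed, 15 pan-neuronal markers summed, 8 choroid plexus markers summed, and Kcne2. E14.5 cKO A is lowest in the first 2 plots, and E14.5 WT A and E16.5 WT C are highest in the last 2.

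Markers of cell types moved alongside the channel genes. The shares of all genes called lower were 10.1% at E16.5 and 1.77% at E14.5. Of 15 pan-neuronal markers, all tested, 10 were lower at E16.5 and 1 at E14.5, with medians of -0.53 and -0.72. Their sum was 6995 to 7554 CPM in E16.5 WT and 5138 to 5414 CPM in E16.5 cKO, and 4722 to 6751 CPM in E14.5 WT and 2743 to 4668 CPM in E14.5 cKO. The tested channel genes had medians of -0.52 and -0.76 at these ages. Of 12 apical progenitor markers, 3 were higher and 0 lower at E16.5, with a median of 0.29, while 6.1% of all genes were called higher. Of 12 GABAergic and ventral markers 0 was called at either age by edgeR, with medians of -0.09 at E16.5 and -1.45 at E14.5, where WT B held 360 CPM of them against 96.1 and 163 in the other WT libraries. The part of these cell types in the changes of the channel genes was not tested.

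Genes that work with potassium channels without belonging to the family were read in 3 lists. Of 15 tested channel partners, 8 were lower at E16.5 and 1, Amigo1, at E14.5, against 10.1% and 1.77% of all genes. The medians of these partners were -0.57 and -0.60. The 4 with the smallest p at E16.5 were Dlg4, a synaptic scaffold (-0.65, edgeR adjusted p = 0.00199), Ank3, Abcc8, and the adhesion protein Cntn2 (-0.55, adjusted p = 0.00306). Of the ion cotransporters, Slc12a4 was lower at E16.5 by -0.66 (adjusted p = 0.0473) in edgeR. It was also lower at E14.5, by -0.87 (adjusted p = 0.0436). Slc12a1 was higher at E16.5 from a very low level, 0.107, 0.117 and 0.154 CPM in WT and 1.40, 1.22 and 0.457 CPM in cKO (adjusted p = 0.014). It reached the level for testing only through the E16.5 cKO group (mean 1.025 CPM), where it is high. The level for testing thus favoured this call. Of the 4 HCN channels, which carry a mixed current on hyperpolarisation, Hcn2 (-1.59), Hcn3 (-0.70) and Hcn4 (-0.80) were lower at E16.5, with edgeR adjusted p-values of 0.0206, 0.00659 and 0.0293.

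Between the 2 ages in WT, 1 member was called higher at E16.5 and 2 lower, against 0.866% higher and 1.03% lower over all genes tested. This comparison uses the same WT libraries as the cKO comparisons. The ages were deposited separately, so age and any processing run cannot be told apart. WT A of E16.5 read as female and the other WT libraries as male. Kcnk1 was at 1.66, 3.56 and 2.17 CPM at E14.5 and 8.70, 8.26 and 6.23 CPM at E16.5, with no overlap and a log2 fold change of 1.67 (SE 0.35, edgeR adjusted p = 0.0401). Kcnn1 and Kcng1 fell, from 19.7 ± 1.11 to 12.6 ± 0.561 CPM and from 19.3 ± 1.83 to 13.2 ± 0.224 CPM (mean ± SD, n = 3 libraries). Their changes were -0.64 (SE 0.14, edgeR adjusted p = 0.0401) and -0.55 (SE 0.12, edgeR adjusted p = 0.0436). Over the 65 tested members 48 had a positive change, with a median of 0.27 against -0.004 over all genes. Each of the 3 calls was lost without any one of WT A or WT C of E14.5 or the 3 WT libraries of E16.5, and with embryo sex in the fit. Without E14.5 WT B, the library with the highest neuronal marker sum of that age, 10 members were called higher (15.4%) and 4 lower (6.15%), against 7.88% and 7.91% of all genes. DESeq2 called 10 higher and 3 lower (4.62%), against 6.97% and 7.14% of all genes.

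In the authors' deposited table for E16.5, 25 members were lower and 1 higher in the knockout at an adjusted p under 0.05, of 76 with such a value, while the same table has 10.8% of 16190 genes lower and 6.26% higher. In the authors' deposited table for E14.5, 23 members were lower and 0 higher, of 66, while the same table has 6.22% of 14958 genes lower and 1.68% higher.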

How the data were processed

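RNA of dorsal cortex was read in 12 libraries. Per the submitters' processing notes, the authors used STAR 2.5.2b and the build mm10, and the deposited values are raw fragment counts per gene from featureCounts 1.5.2, counted per the file headers on the reverse strand (setting 2) where 25 bases or more overlap an exon. Because strand was used, antisense genes were counted apart. The deposited tables of the authors also hold log2 fold changes of WT over KO and adjusted p-values from DESeq2 1.14.1, and 12 columns of normalised library values in them were not used. Exon lengths are those the authors deposited. Counts were tested with edgeR 4.0.16 (R 4.3.3, limma 3.58.1): TMM scaling, genes with a group mean of at least 1 CPM, the robust quasi-likelihood F test and Benjamini-Hochberg adjustment over 14427 genes. Each age was fitted on its 6 libraries, and the age difference and the WT ages on all 12. SE was obtained by dividing the log2 change by the root of its F statistic, and 95% intervals are 1.96 SE to each side. No pair of libraries within a group was a copy of another. The scripts were tested on simulated data. DESeq2 1.42.0, other scalings and filters, a replicate block, embryo sex and leaving out each library were tried. Named are all called members, the highest member per length of each subfamily without a call, the 10 highest in WT and the 3 on each side of the level for testing, and called genes of the other lists up to 4 by p. Some members and partner genes that this rule names are not reported here, though they stay in the counts and medians. The members and lists were chosen with earlier results of these data known.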

Additional observations from a re-analysis of the deposited data

How the results depend on the processing

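At E16.5 the count of members called lower stayed within 1.5 times of 22 under all other settings except leaving out cKO B, and ran from 13 to 26 over the fits without 1 library. It was 26 with DESeq2, 17 with all 12 libraries in 1 fit and 15 with embryo sex added, where 12.3%, 8.2% and 6.99% of all genes were called lower. The count called higher ran from 0 to 2 without 1 library. The median of the tested members at E16.5 ran from -0.66 to -0.42 without 1 library. At E14.5 the count called lower was 22 with DESeq2, 23 with 12 libraries in 1 fit, 6 with embryo sex added, and 0 to 8 without 1 library, with medians from -0.95 to -0.54. As the sex term came from the E16.5 libraries, the count of 6 is no check of sex at E14.5. The WT age comparison called 10 higher with DESeq2, 1 lower with no filter beyond 1 count, and 0 higher and 0 lower with embryo sex, a term added to it after seeing the data. Without 1 library it called 0 to 10 higher and 0 to 4 lower. The cause of these shifts was not tested. No member called in a comparison changed direction there under the settings tried. Kcnj13, not called, went from -1.94 at E14.5 to 0.09 without E14.5 WT A. In the age difference 0 members were called under each setting tried.

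With the first title number as a replicate block, 32 members were called lower (49.2%) and 3 higher (4.62%) at E16.5 and 25 lower (38.5%) at E14.5, against 18.3%, 14.8% and 7.9% of all genes. Deviations of same-numbered libraries correlated at 0.29, 0.32 and -0.02 at E14.5 and 0.28, 0.23 and 0.09 at E16.5 (A, B and C). At each age, WT A and WT B correlated best with the cKO library of their own number. Their correlations with cKO libraries of another number ran from -0.32 to 0.08. WT C correlated best with a cKO library of another number, cKO A at E14.5 (0.10) and cKO B at E16.5 (0.13). These values do not settle whether the numbers pair libraries, because WT A and WT B matched by number and WT C did not. The calls given above were made without the block. With 3 libraries a group, the 27 members under 1 CPM are too low for a statement about their change.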
